A study of Mus musculus with 25 samples.

Results

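The 62 genes described here belong to gene families that hold protein components of the spliceosome, and they were chosen by symbol from the 23116 genes of the RNA-seq table. Of these, 61 are protein-coding and 1 is a processed pseudogene, and the symbols also take in Lsm proteins that act outside splicing. Every gene whose symbol starts with *Snrp*, *Sf3a*, *Sf3b*, *Srsf*, *Prpf* or *U2af*, or with *Lsm* followed by a digit, was taken. The RNA-seq compared HSLAM cells, a bone marrow population sorted as LSK+ CD150+ CD48- to enrich hematopoietic stem cells, from 3 *Znf143 f/f* and 3 *Znf143 -/-* libraries. Adult C57BL/6 mice of 8 to 12 weeks carried *Znf143* alleles with loxP sites around exon 1, and both genotypes received tamoxifen for 10 days, so that the genotypes differed in the presence of *Rosa26ERT2-Cre*. The mice were 3 pairs of littermates, and which libraries form a pair is not given in the sources used here. This Cre is expressed in cells of all types, so the deletion was not limited to blood cells. The labels name the deleted genotype a CTCF knockout, whereas the study describes a deletion of *Znf143*, and the question addressed here is whether the level of spliceosome protein mRNAs differed between these genotypes.

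The spliceosome removes introns from pre-mRNA. It is built from small nuclear RNAs, each wrapped in a ring of Sm or Lsm proteins, and from proteins that recognise the 5′ splice site, the branch point and the 3′ splice site before the catalytic centre forms. SR proteins bind exons and recruit these factors, and somatic mutations in *SF3B1*, *SRSF2* and *U2AF1* are known from human myelodysplastic syndromes, which arise in hematopoietic stem cells. ZNF143, the zinc finger protein that was deleted, is known to bind near the start sites of many genes of basic cell functions, including genes of small nuclear RNAs.

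A list published with the study names genes with strong ZNF143 association at their promoters in hematopoietic progenitors, and 12 of the 62 genes (19.4%) were on it, compared with 7.00% of the 19212 genes tested. These were *Snrpd3*, *Sf3b1*, *Sf3b2*, *Sf3b5*, *U2af1l4*, *Srsf1*, *Srsf9*, *Srsf11*, *Prpf19*, *Lsm4*, *Lsm10* and *Lsm14a*. The study drew the list from its own ChIP-seq and gene expression, so the expression of these cells may have entered it and the shares on the list are given as a description. Promoter sequences (RefSeq, GRCm38.p6, 250 bases before to 50 bases after each start) were found for 51 of the 62 genes, in 65 promoters. The core of the ZNF143 motif (CCCA, any 2 bases, ATGC) was searched on both strands and lay in 9.23% of these promoters and in 1.88% of all 32851 promoters of the same length. The extended part of the motif (ACTACA, any base, TTCCC), whose last CCC are the first letters of the core in the full motif, lay in 3.08% and 0.947%. In the promoters of list members, 38.5% of 13 held the core, and among the 52 promoters of the other genes 1.92% did. Of the 1396 promoters of all genes on the list, 14.4% held the core. The sequences around the motif matches are given below because the letters are those of the motif of the deleted factor. Matching letters are in capitals, and the sequences are read 5′ to 3′ along the strand of the gene. They lie at chr1:55027497-55027556 on the minus strand (*Sf3b1*), chr10:75517982-75518041 on the plus strand (*Snrpd3*), chr11:88047311-88047370 on the plus strand (*Srsf1*), chr5:115327117-115327176 on the plus strand (*Srsf9*), chr7:27195761-27195820 on the minus strand (*Snrpa*, not on the list), chr19:10895219-10895248 and chr19:10895086-10895145 on the plus strand (*Prpf19*) and chr7:30563259-30563318 on the plus strand (*U2af1l4*).
Sf3b1, core: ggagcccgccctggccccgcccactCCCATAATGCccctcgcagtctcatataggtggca
Snrpd3, core: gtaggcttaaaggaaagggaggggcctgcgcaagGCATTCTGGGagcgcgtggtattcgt
Srsf1, core: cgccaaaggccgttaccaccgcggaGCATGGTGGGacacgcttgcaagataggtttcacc
Srsf9, core: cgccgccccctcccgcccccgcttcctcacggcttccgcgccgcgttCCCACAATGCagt
Snrpa, core: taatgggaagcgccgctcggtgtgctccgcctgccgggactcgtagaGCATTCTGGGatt
Prpf19, core: ctgctcggttGCATGCTGGGaaagggcagt
Prpf19, extended part: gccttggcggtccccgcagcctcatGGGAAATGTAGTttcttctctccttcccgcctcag
U2af1l4, extended part: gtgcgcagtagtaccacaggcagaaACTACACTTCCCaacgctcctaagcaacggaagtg

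The core match ended between 4 and 44 bases before the start in the promoters of *Sf3b1*, *Snrpd3*, *Srsf1*, *Srsf9* and *Snrpa*, and it spanned the start in *Prpf19*. The sense strand carried the core in *Sf3b1* and *Srsf9*, and the antisense strand carried it in the other 4 genes. A match describes these letters and is not a measured binding site.

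Between 38643255 and 57895793 fragments lay on genes in each library. The third *Znf143 -/-* library had been deposited with the FPKM divisor of the second, 1.20 times below its own total, so each library was divided here by its own recovered total, and FPKM are given on this scale. Where values of both genotypes follow each other, those of *Znf143 f/f* come first, each in the order of the replicate numbers. *Zfp143*, the mouse gene deleted as *Znf143*, was at 3.06, 4.03 and 3.63 FPKM in the *Znf143 f/f* and at 0.145, 0.303 and 0.273 FPKM in the *Znf143 -/-* libraries, with no overlap (log2 fold change -3.46, 95% confidence interval (CI) -4.03 to -2.88, limma adjusted p = 0.00119). All 8 markers of hematopoietic stem cells were detected, with summed levels of 431 to 527 FPKM in *Znf143 f/f* and 713 to 812 FPKM in *Znf143 -/-* libraries, and of these *Ly6a* rose (log2 fold change 1.16) and *Mecom* fell (log2 fold change -0.52). Cd48, which the sort selects against, was at 9.49 to 10.1 FPKM in *Znf143 f/f* and at 18.3 to 20.8 FPKM in *Znf143 -/-* libraries. Of 7 neutrophil markers, 4 rose, with summed levels of 41.7 to 72.4 FPKM and 123 to 141 FPKM. *Cd3e* and *Cd79a*, defining markers of T and B cells, were below 0.1 FPKM in all libraries. Summed T and NK markers were nonetheless at 114 to 132 FPKM and 212 to 246 FPKM. Most of that was *Nkg7*, which rose (log2 fold change 0.88, limma adjusted p = 0.00786). Megakaryocyte markers summed to 483 to 604 FPKM and 663 to 928 FPKM, with 0 called. B lymphoid markers summed to 2.87 to 3.20 FPKM and 1.68 to 2.29 FPKM. Erythroid markers summed to 36.7 to 44.7 FPKM and 37.5 to 38.5 FPKM, with 1 called lower. The part of such cells in the values below was not tested, and in bulk RNA fewer cells of a type and less RNA per cell cannot be told apart.

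None of the 62 genes was called between the genotypes at an adjusted p under 0.05 (limma with Benjamini-Hochberg adjustment over 19212 genes), while 5.22% of all genes tested were called (2.83% higher and 2.39% lower), and 5.01% of the 4851 genes with a mean of at least 10 FPKM. Voom on the recovered fragments also called 0 (5.35% of all genes), as did limma on the FPKM as deposited (4.32%) and after median-of-ratios scaling (6.00%). At an unadjusted p under 0.05, limma found 9 of the 62 genes (14.5%), 7 higher and 2 lower in *Znf143 -/-*, compared with 22.6% of all genes (12.6% higher and 9.94% lower). The 3 libraries of each genotype did not overlap in 15 of the 62 genes (24.2%), 9 with higher and 6 with lower *Znf143 -/-* levels, compared with 29.4% of all genes (16.0% higher and 13.5% lower). These shares were below the shares of all genes tested. Fold changes were small: the median absolute log2 fold change was 0.10, compared with 0.26 over all genes, and the extremes were -0.56 (*Lsm14b*) and 0.55 (*Srsf12*). For 49 of the 62 genes (79.0%), the whole 95% confidence interval of the fold change lay within 1.5-fold in either direction, compared with 29.8% of all genes. Since well expressed genes are measured more precisely, the comparison was repeated among genes with a mean of at least 10 FPKM, where 44 of 52 spliceosome genes (84.6%) and 62.0% of all genes had such intervals. The median absolute log2 fold change at that level was 0.09 for the spliceosome genes and 0.17 over all genes, a smaller contrast. The median log2 fold change was 0.05, against 0.03 over all genes, and 37 estimates were above and 25 below 0. That split depended on scaling, with 49 above and 13 below 0 in the FPKM as deposited (median 0.14, against 0.11 over all genes), and 34 and 28 after median-of-ratios scaling.

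**Figure D1:**
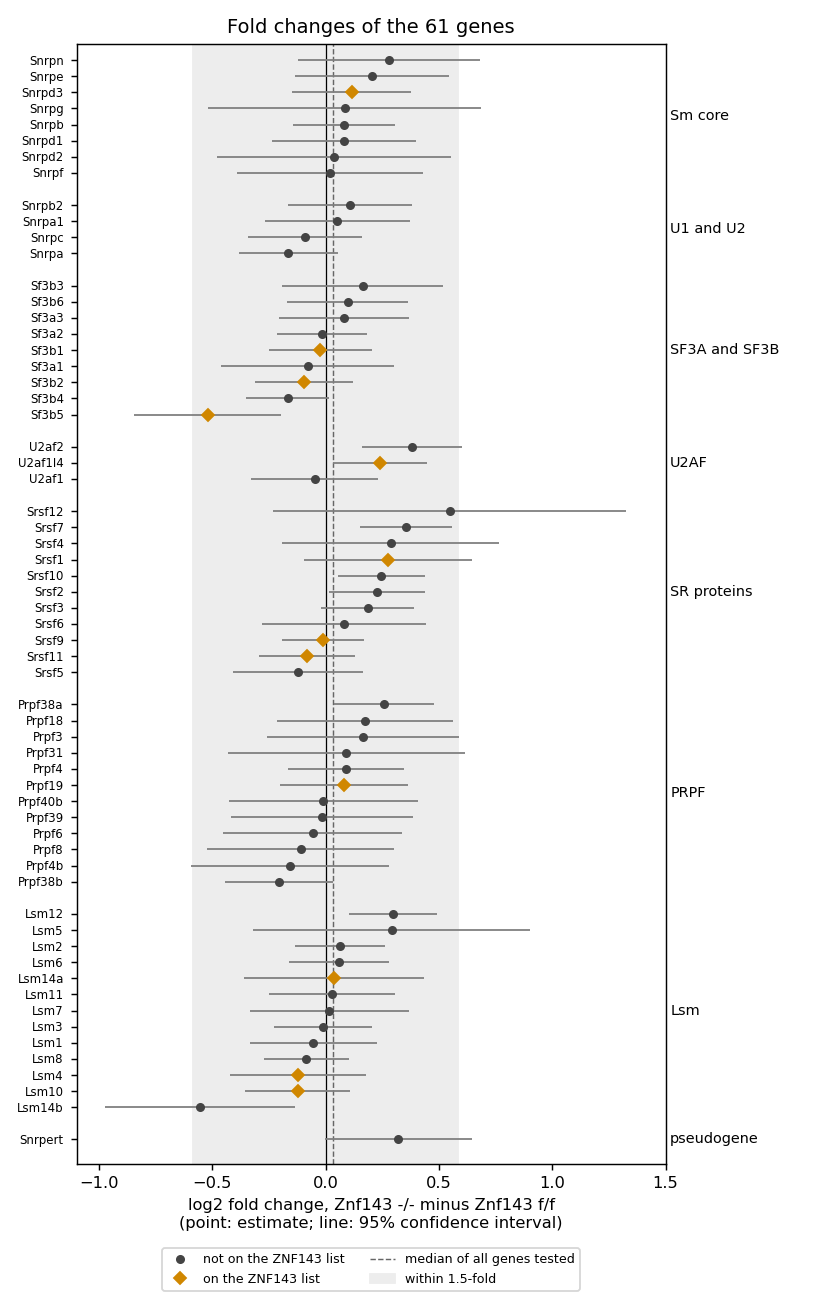
Log2 fold change of 61 of the 62 genes, *Znf143 -/-* minus *Znf143 f/f* on the log2(FPKM + 0.1) scale (horizontal axis), grouped by role, where points are estimates, lines are 95% confidence intervals, diamonds are genes on the ZNF143 list and the shaded band is 1.5-fold. For 48 of the 61 genes plotted the interval lies wholly inside the band, and *Sf3b5* and *Lsm14b* lie farthest to the left.

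The genes were well expressed, with a median of 39.6 FPKM compared with 2.41 FPKM over all genes tested. A mean of at least 10 FPKM was found for 52 genes and of at least 100 FPKM for 17. Means ran from 0.294 FPKM (*Srsf12*, with 18 to 79 fragments per library) to 489 FPKM (*Snrpb*, with 38622 to 58141 fragments). The levels summed over all 62 genes were 5152, 5472 and 5159.7 FPKM in the *Znf143 f/f* and 6099, 5201 and 5325 FPKM in the *Znf143 -/-* libraries, and the ranges overlapped, with the first *Znf143 -/-* library the highest.

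**Figure D2:**
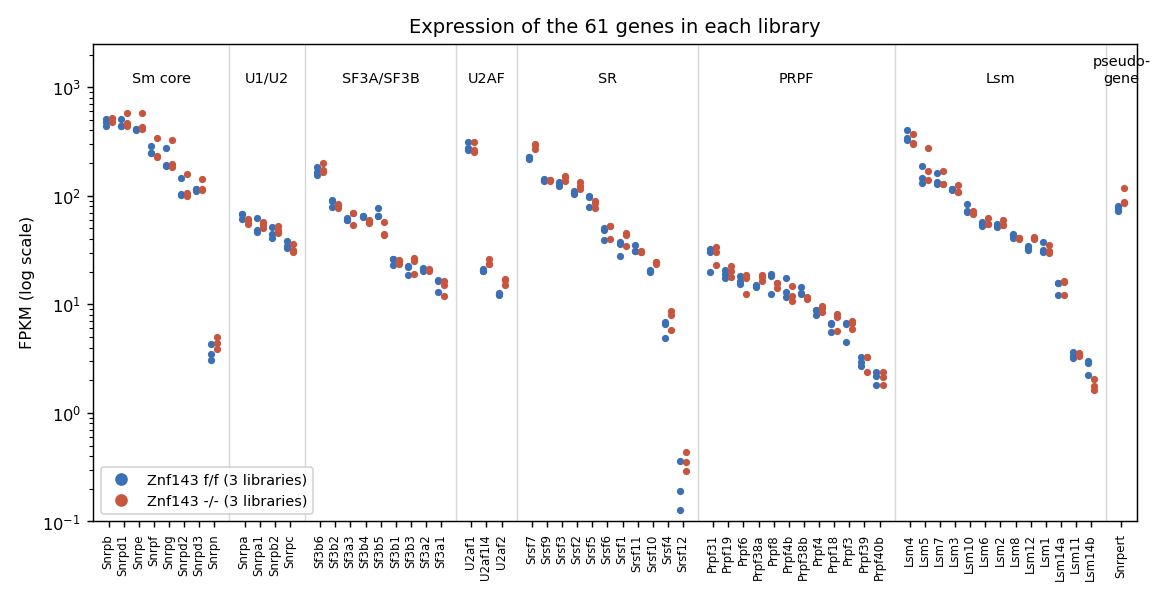
FPKM of 61 of the 62 genes in each of the 6 libraries (vertical axis, log scale), with genes grouped by role and ordered by level. Sm core genes reach the highest levels, up to a mean of 489 FPKM for *Snrpb*, and the points of the 2 genotypes overlap for 46 of the 61 genes plotted.

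The Sm core proteins form the ring on U1, U2, U4 and U5 small nuclear RNAs. All 8 genes had estimates above 0 (median log2 fold change 0.08), none passed the test, and in none did the libraries separate by genotype. *Snrpb*, which encodes SmB and is the most highly expressed of the 62 genes, was at 506, 443 and 477 FPKM in *Znf143 f/f* and 482, 516 and 508 FPKM in *Znf143 -/-* libraries. The ranges overlapped, with a log2 fold change of 0.08 (95% CI -0.14 to 0.31) and adjusted p = 0.664. *Snrpd3*, which encodes SmD3 and whose promoter holds the core motif, was at 114, 114 and 112 FPKM and 142, 113 and 115 FPKM. Only the first *Znf143 -/-* library stood above the rest for *Snrpd3* (log2 fold change 0.11, 95% CI -0.15 to 0.38, adjusted p = 0.596). *Snrpn*, which encodes SmN, an Sm protein known from brain that can stand in for SmB, was low, at 3.50, 4.34 and 3.09 FPKM and 3.85, 5.01 and 4.41 FPKM. It had the largest log2 fold change of the Sm genes, 0.28 (95% CI -0.12 to 0.68, adjusted p = 0.386), with overlapping ranges, and its locus is shared with *Snurf*, whose exons it overlaps. The summed Sm level was 2043, 2151 and 1996 FPKM in *Znf143 f/f* and 2618, 2001 and 2061 FPKM in *Znf143 -/-* libraries, again with the first *Znf143 -/-* library alone above the others.

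*Snrpa* and *Snrpc* encode the A and C proteins of U1, and *Snrpa1* and *Snrpb2* encode the A′ and B″ proteins of U2. The U1 log2 fold changes were below 0 (*Snrpa* -0.16, *Snrpc* -0.09) and the U2 log2 fold changes above 0 (*Snrpa1* 0.05, *Snrpb2* 0.11), and the 4 intervals all lay within 1.5-fold. *Snrpa*, with the core motif in its promoter, was at 68.3, 60.7 and 67.6 FPKM in *Znf143 f/f* and 55.1, 61.2 and 59.0 FPKM in *Znf143 -/-* libraries. The ranges overlapped only through the second *Znf143 f/f* library (adjusted p = 0.343).

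The SF3A and SF3B complexes belong to U2 and hold the branch point. Of their 9 genes, 3 had estimates above and 6 below 0, and none was called. *Sf3b5*, a small SF3B subunit encoded at chr10:13005343-13009183 and on the ZNF143 list, was at 65.5, 76.3 and 65.7 FPKM in *Znf143 f/f* and 57.6, 43.4 and 44.4 FPKM in *Znf143 -/-* libraries. All *Znf143 -/-* libraries were below all *Znf143 f/f* libraries, with means of 69.2 ± 6.19 (SD, n = 3) and 48.5 ± 7.89 FPKM (SD, n = 3). The log2 fold change was -0.52 (95% CI -0.84 to -0.20), and the adjusted p was 0.0823 by limma. Without the first *Znf143 -/-* library, the highest of the 3, the estimate was -0.65 with an adjusted p of 0.0213, in a fit that called 10.02% of all genes, and without any other single library the adjusted p was 0.112 to 0.297. *Sf3b4*, which encodes a subunit that contacts RNA near the branch point, was also lower without overlap, at 65.4, 63.8 and 64.9 FPKM and 55.6, 57.6 and 59.6 FPKM (log2 fold change -0.17, adjusted p = 0.259). Its exons overlap those of *Gm17690* on the opposite strand by 85 bases, and the library kit does not mark strand.

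*Sf3b1*, the largest SF3B subunit and the core of the branch point pocket, differed little. It was at 26.3, 23.0 and 26.3 FPKM in *Znf143 f/f* and 23.5, 25.3 and 25.5 FPKM in *Znf143 -/-* libraries, with a log2 fold change of -0.02 (95% CI -0.25 to 0.20). It is on the list, and its promoter holds the core motif. The sign of so small an estimate changed under other settings (as deposited, 0.06). *Sf3b2*, also on the list, was at 89.7, 79.6 and 90.8 FPKM and 77.3, 81.7 and 83.7 FPKM (log2 fold change -0.10, 95% CI -0.31 to 0.12), with overlapping ranges. *Sf3b6*, the most highly expressed of the SF3 genes, encodes the small subunit that lies next to the branch point, and it was at 154, 184 and 164 FPKM and 199.6, 165 and 173 FPKM (log2 fold change 0.10, 95% CI -0.17 to 0.36), also overlapping.

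U2AF recognises the 3′ splice site, with the large subunit (*U2af2*) on the polypyrimidine tract and the small subunit (*U2af1*) on the AG. The large subunit showed the second smallest p of the 62 genes. *U2af2*, at chr7:5062143-5079938, was at 12.3, 12.3 and 12.8 FPKM in *Znf143 f/f* and 15.1, 17.0 and 16.7 FPKM in *Znf143 -/-* libraries. Every *Znf143 -/-* library was above every *Znf143 f/f* library, with means of 12.5 ± 0.278 (SD, n = 3) and 16.3 ± 1.02 FPKM (SD, n = 3). Its log2 fold change was 0.38 (95% CI 0.16 to 0.60, adjusted p = 0.0708 by limma), and the adjusted p was 0.0276 without the first *Znf143 -/-* library (10.02% of all genes called) and 0.0664 to 0.301 without any other single library. *U2af1* was far more abundant per length and overlapped, at 264, 314 and 276 FPKM and 309.7, 252 and 264 FPKM (log2 fold change -0.05, 95% CI -0.33 to 0.23). The listed length of *U2af1*, 974 bases, is below its 2598 exon bases in GENCODE release 21. Its FPKM, and the size of its ratio to *U2af2*, depend on that listed length. The ratio of *U2af1* to *U2af2* FPKM, formed after the values were seen, was 21.4, 25.5 and 21.5 in *Znf143 f/f* and 20.5, 14.8 and 15.8 in *Znf143 -/-* libraries, with no overlap. *U2af1l4*, a relative of the small subunit on the ZNF143 list, was at 20.4, 21.2 and 20.5 FPKM and 26.0, 23.6 and 23.8 FPKM. The ranges did not overlap, with a log2 fold change of 0.24 (95% CI 0.03 to 0.45, adjusted p = 0.168), and *U2af1l4* was thus one of the list members with higher *Znf143 -/-* levels. Its listed length of 3804 bases exceeds the 1656 exon bases in GENCODE release 21, and its exons overlap *Gm49396* and *Psenen*, so part of its fragments may belong to these genes.

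SR proteins bind exonic enhancers and bring U1 and U2AF to the splice sites. Of 11 genes, 8 had estimates above and 3 below 0, with a median log2 fold change of 0.22, and 4 were higher and 1 lower in *Znf143 -/-* without overlap, where 16.0% and 13.5% of all genes were. None was called. *Srsf7*, which has the smallest p of the 62 genes and the highest level of the SR genes, lies at chr17:80200080-80207307 and was at 218, 227 and 229.8 FPKM in *Znf143 f/f* and 271, 297 and 295 FPKM in *Znf143 -/-* libraries. All *Znf143 -/-* libraries were higher, with means of 225 ± 6.19 (SD, n = 3) and 288 ± 14.1 FPKM (SD, n = 3), a log2 fold change of 0.35 (95% CI 0.15 to 0.56) and an adjusted p of 0.0668 by limma. For *Srsf7* the adjusted p was 0.0276 without the first *Znf143 -/-* library (10.02% of all genes called) and 0.0656 to 0.291 without any other single library. *Srsf10*, a splicing regulator that represses splicing when dephosphorylated, was at 20.4, 20.0 and 20.7 FPKM and 24.4, 23.5 and 24.5 FPKM (log2 fold change 0.25, adjusted p = 0.138), without overlap. *Srsf2* was at 103, 105 and 111 FPKM and 116, 124 and 133 FPKM (log2 fold change 0.22, adjusted p = 0.199). *Srsf3*, the closest relative of *Srsf7*, also separated by genotype, at 129.9, 122 and 133 FPKM and 137, 150.4 and 151 FPKM (log2 fold change 0.18, adjusted p = 0.267). The exons of *Srsf2* overlap *Mettl23* and *Mfsd11* on the opposite strand by 460 bases.

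The 3 SR genes on the ZNF143 list differed in the sign of their log2 fold changes, and none was called. *Srsf1*, the founding SR protein, was at 36.1, 28.1 and 37.4 FPKM in *Znf143 f/f* and 34.2, 45.1 and 43.6 FPKM in *Znf143 -/-* libraries, with overlap (log2 fold change 0.28, 95% CI -0.10 to 0.65). *Srsf9*, with the core motif close to its start, was at 137, 143 and 139 FPKM and 138, 139 and 139 FPKM, among the smallest differences of the 62 genes (log2 fold change -0.01, 95% CI -0.19 to 0.17). *Srsf11* was at 31.0, 35.1 and 31.0 FPKM and 30.2, 30.6 and 30.7 FPKM (log2 fold change -0.08, 95% CI -0.29 to 0.13), and its *Znf143 -/-* libraries lay just below those of *Znf143 f/f*. Summed over the 11 genes, SR levels were 828, 804 and 860.1 FPKM in *Znf143 f/f* and 875, 957 and 969 FPKM in *Znf143 -/-* libraries, without overlap, and *Srsf7* contributed the most to that sum.

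**Figure D3:**
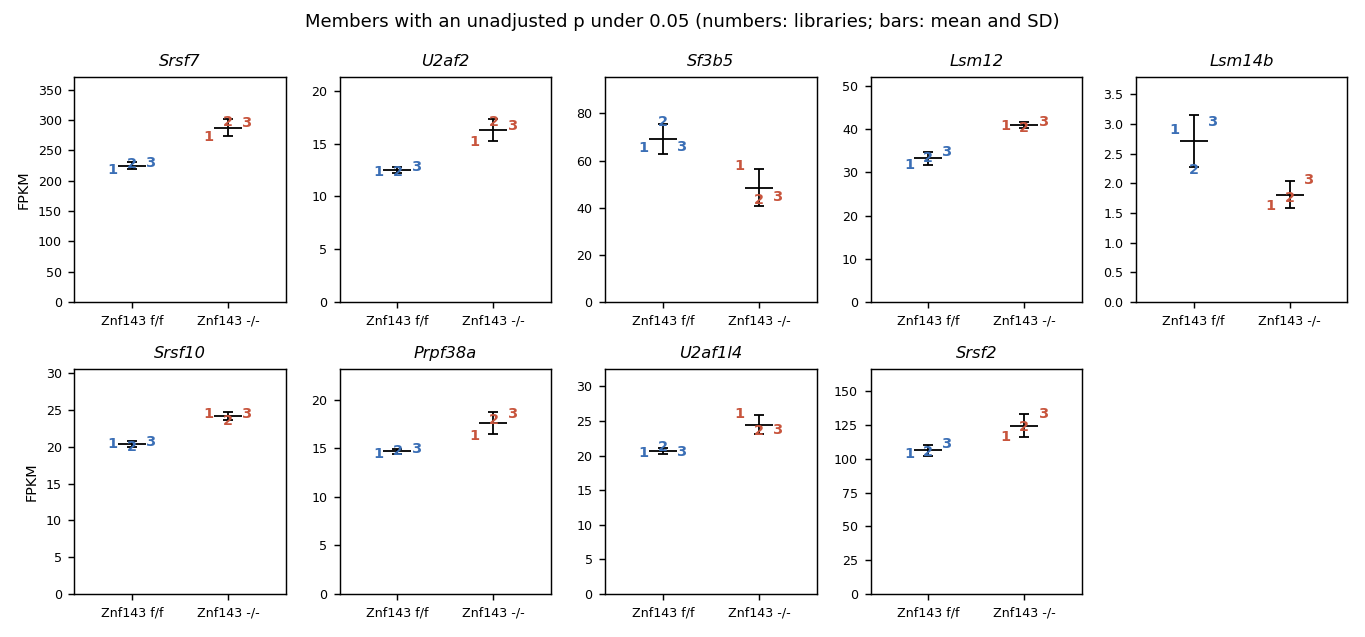
FPKM of the 9 genes with an unadjusted p under 0.05 (vertical axes start at 0), where each number marks a library and bars give the mean and SD of 3 libraries. The genotypes do not overlap in any panel, *Sf3b5* and *Lsm14b* are lower in *Znf143 -/-*, the other 7 are higher, and adjusted p values run from 0.0668 (*Srsf7*) to 0.199 (*Srsf2*).

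PRPF genes encode factors of the U4/U6.U5 tri-snRNP, of the Prp19 complex and of U1. Estimates were above 0 for 6 and below 0 for 7 of 13 genes. *Prpf8*, the scaffold of the catalytic centre, was at 19.0, 12.4 and 18.4 FPKM in *Znf143 f/f* and 14.1, 15.7 and 15.6 FPKM in *Znf143 -/-* libraries (log2 fold change -0.11, 95% CI -0.53 to 0.30). *Prpf31*, a tri-snRNP protein with the highest level of the PRPF genes, was at 32.3, 19.9 and 30.1 FPKM and 23.0, 33.4 and 30.6 FPKM (log2 fold change 0.09, 95% CI -0.43 to 0.62). In both genes the second *Znf143 f/f* library was the lowest of the 6, and the ranges overlapped. *Prpf19*, the ubiquitin ligase of the Prp19 complex, carries both motif parts in its promoter and is on the ZNF143 list, and it was at 20.7, 17.6 and 19.0 FPKM and 18.0, 22.6 and 20.1 FPKM (log2 fold change 0.08, 95% CI -0.20 to 0.36), with overlap.

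*Prpf38a* and *Prpf38b*, related genes of which *Prpf38a* acts in spliceosome activation, separated in opposite directions. *Prpf38a* was at 14.4, 14.8 and 14.9 FPKM in *Znf143 f/f* and 16.3, 18.0 and 18.6 FPKM in *Znf143 -/-* libraries (log2 fold change 0.26, 95% CI 0.04 to 0.48, adjusted p = 0.167). *Prpf38b* was at 12.4, 14.5 and 12.8 FPKM and 11.7, 11.3 and 11.4 FPKM (log2 fold change -0.21, 95% CI -0.44 to 0.03, adjusted p = 0.28). Neither passed the test. The ratio of *Prpf38a* to *Prpf38b*, formed after the values were seen, was 1.16, 1.01 and 1.17 in *Znf143 f/f* and 1.40, 1.59 and 1.63 in *Znf143 -/-* libraries. That these ratios do not overlap follows from the opposite separation of both genes and adds no evidence.

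The Lsm genes divide by function. The ring of Lsm2 to Lsm8 binds U6 small nuclear RNA, Lsm1 replaces Lsm8 in the ring that promotes mRNA decapping, Lsm10 and Lsm11 belong to U7, which processes histone mRNA, and Lsm14a and Lsm14b act in translational repression and mRNA decay. *Lsm4*, on the ZNF143 list and the highest of the 13, was at 340.1, 399.9 and 327 FPKM in *Znf143 f/f* and 371, 301 and 309 FPKM in *Znf143 -/-* libraries (log2 fold change -0.12, 95% CI -0.42 to 0.18), with overlap. *Lsm8*, specific to the U6 ring, was at 44.5, 41.2 and 43.3 FPKM and 40.0, 41.2 and 40.4 FPKM (log2 fold change -0.09, 95% CI -0.27 to 0.10). The *Lsm8* ranges did not overlap, but the gap was small and the interval included 0. *Lsm10*, also on the list, was at 72.6, 84.6 and 71.4 FPKM and 72.2, 69.6 and 67.5 FPKM (log2 fold change -0.12, 95% CI -0.35 to 0.11), with overlap.

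The lowest log2 fold change of the 62 genes was that of *Lsm14b*, at chr2:180024987-180035465 and measured by 221 to 390 fragments per library. It was at 2.90, 2.22 and 3.03 FPKM in *Znf143 f/f* and 1.61, 1.76 and 2.06 FPKM in *Znf143 -/-* libraries, without overlap and with means of 2.72 ± 0.435 (SD, n = 3) and 1.81 ± 0.230 FPKM (SD, n = 3). The log2 fold change was -0.56 (95% CI -0.97 to -0.14, adjusted p = 0.127 by limma), and without the second *Znf143 f/f* library, the lowest of its genotype, it was -0.69 with an adjusted p of 0.0447, in a fit that called 9.93% of all genes, while without any other single library the adjusted p was 0.153 to 0.366. *Lsm14a*, its list member paralog, was at 15.7, 12.1 and 15.8 FPKM and 12.1, 16.5 and 16.2 FPKM (log2 fold change 0.04, 95% CI -0.36 to 0.43), with overlap. The ratio of *Lsm14a* to *Lsm14b*, formed after the values were seen, was 5.42, 5.45 and 5.21 in *Znf143 f/f* and 7.54, 9.39 and 7.87 in *Znf143 -/-* libraries. In this ratio the second *Znf143 f/f* library no longer stood apart. *Lsm12*, an Lsm domain protein with no known place in the spliceosome, was at 31.8, 33.2 and 34.8 FPKM and 40.7, 40.4 and 41.7 FPKM (log2 fold change 0.30, 95% CI 0.10 to 0.49, adjusted p = 0.0909), without overlap.

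*Snrpert* is annotated as a processed pseudogene of *Snrpe*, and 276 of its 279 bases (98.9%) are identical to *Snrpe*, so fragments of both cannot be assigned with certainty. It was at 73.0, 80.9 and 76.6 FPKM in *Znf143 f/f* and 117, 87.5 and 86.1 FPKM in *Znf143 -/-* libraries (log2 fold change 0.32, 95% CI -0.0043 to 0.65). *Snrpe* was at 400.4, 409 and 415 FPKM and 582, 414 and 432 FPKM (log2 fold change 0.20, 95% CI -0.14 to 0.55). The ratio of *Snrpe* to *Snrpert* was 5.32 ± 0.232 (SD, n = 3) with and 4.90 ± 0.154 (SD, n = 3) without *Znf143*.

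As a set, the 12 genes on the ZNF143 list had 7 estimates below and 5 above 0, with a median log2 fold change of -0.02, and the other 50 genes had a median of 0.07. Over all 1345 tested genes of the list the median was -0.10, and 152 were called lower and 26 higher (13.2%). Among the 12 spliceosome genes 0 were called by limma and 2 had an unadjusted p under 0.05, *Sf3b5* (lower) and *U2af1l4* (higher). Since gene expression may have entered the list, these directions are not taken as independent evidence.

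**Figure D4:**
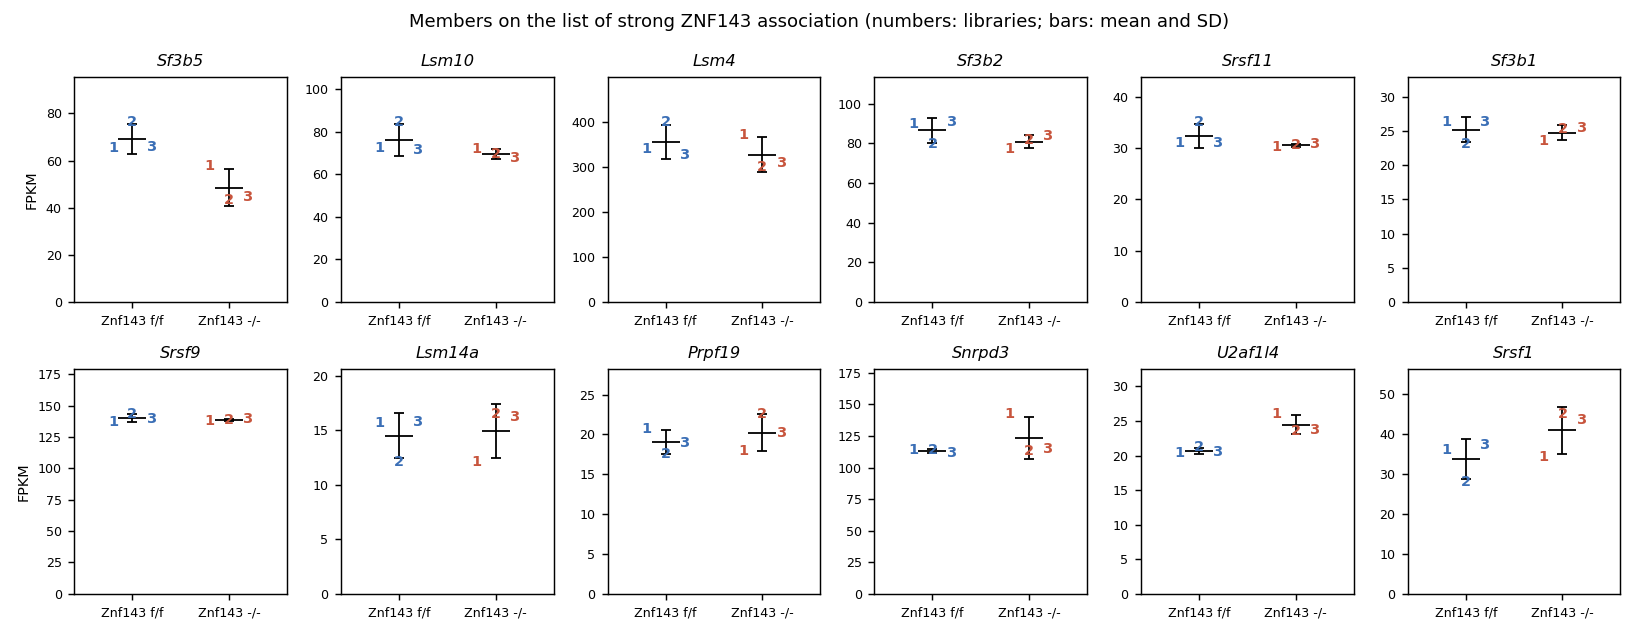
FPKM of the 12 genes on the ZNF143 list, ordered by log2 fold change (vertical axes start at 0), where each number marks a library and bars give the mean and SD of 3 libraries. *Sf3b5* is lower and *U2af1l4* higher in every *Znf143 -/-* library, and *Srsf11* is lower by a small margin, while the other 9 overlap.

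Other genes of splicing were taken from lists of 75 further spliceosome components, 17 genes of the SMN complex and Sm assembly, and 6 SR kinases. Of these 98 genes, 2 (2.04%) were called and both fell, and 12 had an unadjusted p under 0.05, 3 higher and 9 lower. Of all genes tested, 5.22% were called and 22.6% had an unadjusted p under 0.05 (12.6% higher and 9.94% lower). *Zmat5*, which encodes a protein of the U11/U12 particle of the minor spliceosome, was at 40.3, 47.9 and 39.9 FPKM in *Znf143 f/f* and 24.4, 16.2 and 18.8 FPKM in *Znf143 -/-* libraries. It fell to 46.4% of the *Znf143 f/f* mean (log2 fold change -1.12, limma adjusted p = 0.0155). *Gemin6*, a subunit of the SMN complex that loads Sm rings, was at 53.0, 49.4 and 51.1 FPKM and at 30.1, 36.7 and 38.3 FPKM, and it fell to 68.5% (log2 fold change -0.55, limma adjusted p = 0.0425). Both genes were on the ZNF143 list and separated by genotype. Without the first or the third *Znf143 f/f* or the third *Znf143 -/-* library, 0 of the 98 genes were called, and without the second *Znf143 -/-* library 1 was. With the replicate number as a block in the fit, both calls were lost (limma adjusted p = 0.0794 for *Zmat5* and 0.163 for *Gemin6*).

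Much of the spread within a genotype lay in 2 libraries. The second *Znf143 f/f* and the first *Znf143 -/-* library each differed from the other 2 of their genotype with gene length. Across the 62 genes, Spearman's rho between length and this difference was -0.44 and -0.53, and the differences of these libraries had Pearson's r = 0.59 (rho 0.64) with each other, as a description over genes that share the libraries. Over all 19212 genes these values were weaker, with rho -0.20 and -0.24 against length and r = 0.09 (rho 0.22) between the libraries. The direction was the same in 51 of the 62 genes (82.3%), and in 64.1% of all genes tested. These comparisons with all genes were not matched on level, with medians of 39.6 FPKM for the 62 genes and 2.41 FPKM for all genes tested. The 8 genes shorter than 1500 bases had median differences of 0.22 and 0.39 on the log2 scale, and the 37 genes of at least 3000 bases had medians of -0.10 and -0.15. Single genes departed from this, such as *Snrpf* (861 bases), at -0.12 in the second *Znf143 f/f* library, and *Prpf4b* (8430 bases), at 0.48 and 0.38. *Lsm5*, of 792 bases, was at 131, 187 and 147 FPKM in *Znf143 f/f* and 274, 141 and 171 FPKM in *Znf143 -/-* libraries, with the highest value in the first *Znf143 -/-* library. *Snrpg*, of 1570 bases, was at 187, 276 and 193 FPKM and 326, 183 and 198 FPKM, high in the same 2 libraries. The labels give no batch for these libraries, and what sets them apart was not tested.

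**Figure D5:**
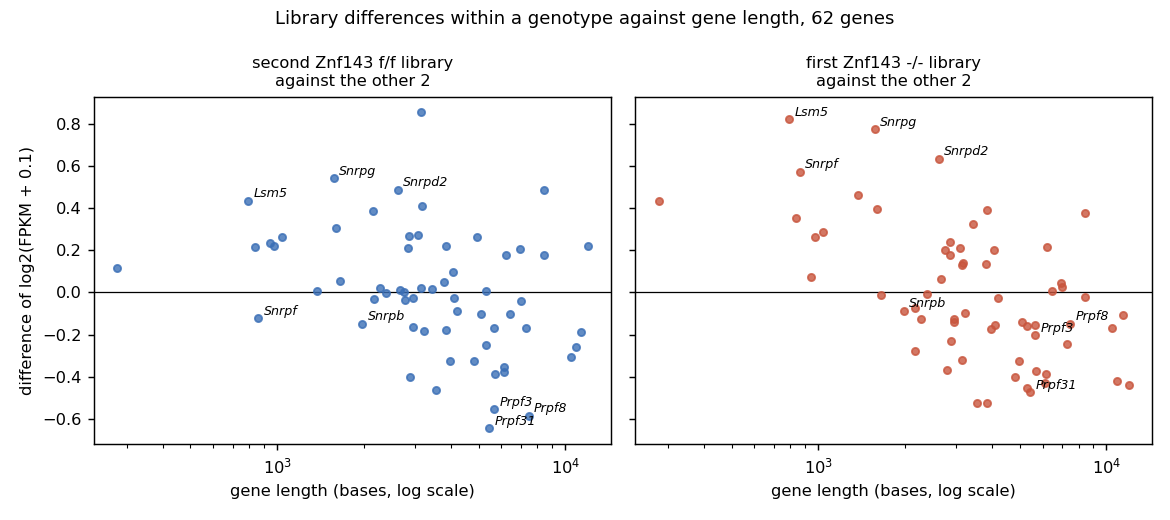
Difference of log2(FPKM + 0.1) between the second *Znf143 f/f* library (left) or the first *Znf143 -/-* library (right) and the mean of the other 2 libraries of the genotype, against gene length in bases (log scale), with 1 point for each of the 62 genes. *Lsm5* and *Snrpg*, which are short, lie high and *Prpf31*, which is longer, lies low in both panels, with single genes against this pattern.

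Without both libraries, a comparison of 2 against 2 called 24 of the 62 genes (38.7%), 16 higher and 8 lower, but it also called 42.5% of all genes. Calls in that fit include *Srsf7*, *U2af2*, *Lsm12* and *Prpf38a* with higher and *Sf3b5*, *Lsm14b* and *Sf3b4* with lower *Znf143 -/-* levels. The share of spliceosome genes called was near that of all genes. The log2 fold changes in this comparison were -0.58 for *Sf3b5*, -0.61 for *Lsm14b*, 0.40 for *Srsf7* and 0.42 for *U2af2*, close to those from all 6 libraries.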

How the data were processed

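RNA-seq of 6 libraries (3 of each genotype) was used. ChIP-seq and HiC samples were not analysed here. The members and the gene lists were chosen with earlier results of these data known. The authors aligned paired 76-base reads to GRCm38 with STAR, counted fragments per gene and deposited FPKM for each library with gene lengths, and their fold change and p-value columns were not used. Libraries were assigned by label. Fragments were recovered from FPKM times length (138677 of 138696 values whole within 0.05), and each library was divided by its own total of recovered fragments. The 19212 genes whose FPKM averaged 0.1 or more were tested on log2(FPKM + 0.1), a scale that understates changes of low genes, with limma 3.58.1 in R 4.3.3 (eBayes with a variance trend, two-sided, Benjamini-Hochberg over all genes), after a test on simulated data. Confidence intervals are limma's. The p-values measure the spread between 3 libraries per genotype. The study names 3 pairs of littermates for 6 libraries. Named are, in each role, the gene with the highest mean FPKM and that with the largest absolute fold change among genes of at least 1 FPKM, all genes on the ZNF143 list, *Zfp143* and called genes of the other lists. Other genes named were chosen after their values were seen. Annotation came from GENCODE release 21 and promoters from RefSeq. No promoter sequence was matched for 11 genes, among them *Sf3b4*, *Sf3b5*, *U2af2*, *Lsm1*, *Lsm4*, *Lsm12*, *Prpf18*, *Snrpb*, *Snrpd1* and *Snrpert*. Of the 62 genes, 16 overlap exons of a gene on the opposite strand and 5 on the same strand. The values of 1 PRPF gene are not reported here, although it is part of all counts. Scripts ran in Python 3.11.15 with pandas 2.3.3, numpy 2.4.6, matplotlib 3.10.9 and scipy 1.17.1.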

Additional observations from a re-analysis of the deposited data

How the results depend on the processing

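Across 17 alternatives (pseudocounts of 0.01 and 1, other filters, scalings, voom, no variance trend, the replicate block and left-out libraries), 428 of 476 values of 28 named genes kept their direction and side of the threshold, 17 reversed, 18 passed the threshold only under the alternative and 13 lost it. The number of the 62 genes called was 0 to 3 when 1 library was left out (higher 0 to 2, lower 0 to 1). It was 24 (16 higher, 8 lower) in the comparison without the second *Znf143 f/f* and first *Znf143 -/-* libraries, which was added after the data were seen, with 38 of the 98 other splicing genes called there. Of those 98 genes, 1 was called with FPKM as deposited, 1 without the variance trend and 0 to 5 with 1 library left out. With the replicate block, 0 of the 98 and 0 of the 62 genes were called, and with the block and median-of-ratios scaling, added after the data were seen, 0 of the 98. The block was left out of the fit reported above because the methods of the study state none. Same-numbered libraries had r = -0.097, -0.090 and 0.035 over genes. Differently numbered libraries of opposite genotypes had r from -0.044 to 0.107. As the libraries that form a pair are not given, these values cannot show whether pairing matters. As deposited, the median log2 fold change was 0.14. The estimates that reversed were small: as deposited *Sf3b1* 0.0606, *Srsf11* 0.0019, *Srsf9* 0.0734 and *U2af1* 0.0351, without both of those libraries *Srsf9* 0.0111, and with 1 library left out *Sf3b1* -0.0869 to 0.0124, *Lsm14a* -0.0878 to 0.18, *Prpf31* -0.12 to 0.25, *Srsf9* -0.0255 to 0.0068, *U2af1* -0.14 to 0.0241 and *Prpf19* -0.0016 to 0.16. The divisor of the third *Znf143 -/-* library shifts all its genes as deposited; the cause of the other changes was not tested. Genes at a few fragments, such as *Srsf12*, are limited by depth.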
